A study of Mus musculus with 6 samples.

Results

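The genes of the PI3 kinase, Akt and mTOR pathway were followed in splenic follicular (Fo) B cells of G9gl and WT mice. The set holds 37 genes chosen by symbol: class I PI3 kinase subunits and an adaptor, lipid phosphatases, the Akt kinases, the mTOR complexes with their upstream regulators, and the Foxo and Gsk3 targets of Akt. All 37 were present among the 24346 gene symbols of the deposited tables. Pik3cb and Rragd fell under the filter of 1 FPKM in 3 libraries, which left 35 genes to test. FPKM is a fragment count scaled for transcript length and library size, so that levels can be compared between genes of different length.

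The study sequenced RNA of Fo B cells, which are the mature recirculating B cells of the spleen, sorted as B220+ CD93- cells with low CD21 and high CD23. The 3 G9gl libraries came from mice aged 8 weeks and homozygous for the G9gl heavy and light chain knock-in, the germline precursor of an anti-DNA antibody from a person with lupus. The 3 WT libraries came from B6 control mice of the same age. The comparison was made to describe the anergic state of G9gl B cells, in which self-reactive cells persist but respond weakly to antigen. No label states that replicate libraries are from different mice. The p-values therefore reflect the scatter among these libraries alone, and that scatter could be technical.

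PI3 kinase is recruited when the B cell receptor is engaged, and it phosphorylates a membrane lipid that draws Akt and its activating kinase PDK1 to the plasma membrane. Lipid phosphatases remove that signal. Akt then holds Foxo factors out of the nucleus, inhibits Gsk3 and relieves the TSC complex's block on Rheb, which turns on mTOR complex 1 on the lysosome when amino acids are sensed through the Rag GTPases. In B cells the delta catalytic subunit carries much of this signal, and Foxo1 directs maturation, homing and survival genes.

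The libraries were estimated to hold 10220000 to 12000000 fragments, and at that depth 1 FPKM of a 2 kb transcript is worth 18.4 to 21.6 fragments. Summed B cell markers were 9692 to 9907 FPKM in G9gl and 9881 to 10298 FPKM in WT, with 5 of the 9 called lower and 2 higher, while Cd93 stayed between 1.17 and 1.89 FPKM across both groups. Xist was present and the 4 Y-linked genes examined were at 0 in every library. Summed macrophage markers were 60.7 to 67.7 FPKM in G9gl against 23.4 to 31.4 FPKM in WT, with 9 of the 11 tested higher. Summed neutrophil markers were 15.2 to 34.5 FPKM in G9gl against 2.11 to 7.88 FPKM in WT, and NK cell markers 7.10 to 10.5 FPKM in G9gl against 2.15 to 3.90 FPKM in WT. Dendritic cell markers summed to 3.09 to 4.32 FPKM in G9gl against 1.403 to 1.59 FPKM in WT. Plasma cell markers summed to 143 to 152 FPKM in G9gl against 128 to 142 FPKM in WT, with 2 of the 4 tested called higher and 1 lower. Most of that sum was Xbp1, whose groups overlapped, at 97.2 to 115 FPKM in G9gl and 89.5 to 104 FPKM in WT. Erythroid markers summed to 60.2 to 219.8 FPKM in G9gl against 41.5 to 43.4 FPKM in WT, and the 1 marker tested was not called. Marginal zone or B1 cell markers summed to 60.9 to 63.9 FPKM in G9gl against 83.4 to 92.1 FPKM in WT, with 2 of the 6 called lower and 1 higher. T cell markers overlapped, at 7.40 to 8.47 FPKM in G9gl and 4.51 to 7.45 FPKM in WT. Summed genes of cell dissociation and stress were 3843 to 4562 FPKM in G9gl against 3182 to 3528 FPKM in WT. Of the 13 of these genes that were tested, 5 were called higher and 2 lower. Immature B cell genes summed to 262 to 288 FPKM in G9gl against 705 to 753 FPKM in WT. The part of these shifts in the results below was not tested.

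Among the 35 tested genes, 9 were lower and 2 were higher in G9gl (limma on log2(FPKM + 1), Benjamini-Hochberg adjusted p under 0.05 over all 10122 tested genes). The genes that fell were Akt1, Ddit4, Pik3ca, Inpp4b, Gsk3a, Foxo1, Rptor, Pik3cg and Inpp5d, and those that rose were Nprl3 and Sesn3. Of all tested genes 11.6% were called lower and 11.8% higher, against 25.7% and 5.71% of the tested pathway genes. Rescaled to TPM, 2493 of all genes were lower and 730 higher, against 1174 and 1191 as deposited. In either direction 23.4% of all genes and 31.4% of the pathway genes were called. The median log2 fold change was -0.07 over the pathway genes and -0.0022 over all tested genes, and the median size of the change was 0.16 for both. In 17 of the 35 genes the values of the groups did not overlap, or 48.6%, against 40.8% of all tested genes. G9gl lay wholly below WT in 12 of them and wholly above in 5, beside 20.5% and 20.3% of all tested genes. Akt1 and Ddit4 were the only called pathway genes to change at least 2-fold, a size reached by 2.54% of all tested genes. In bulk RNA, fewer cells of a type and less RNA per cell cannot be told apart, which holds for every value below.

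**Figure D1:**
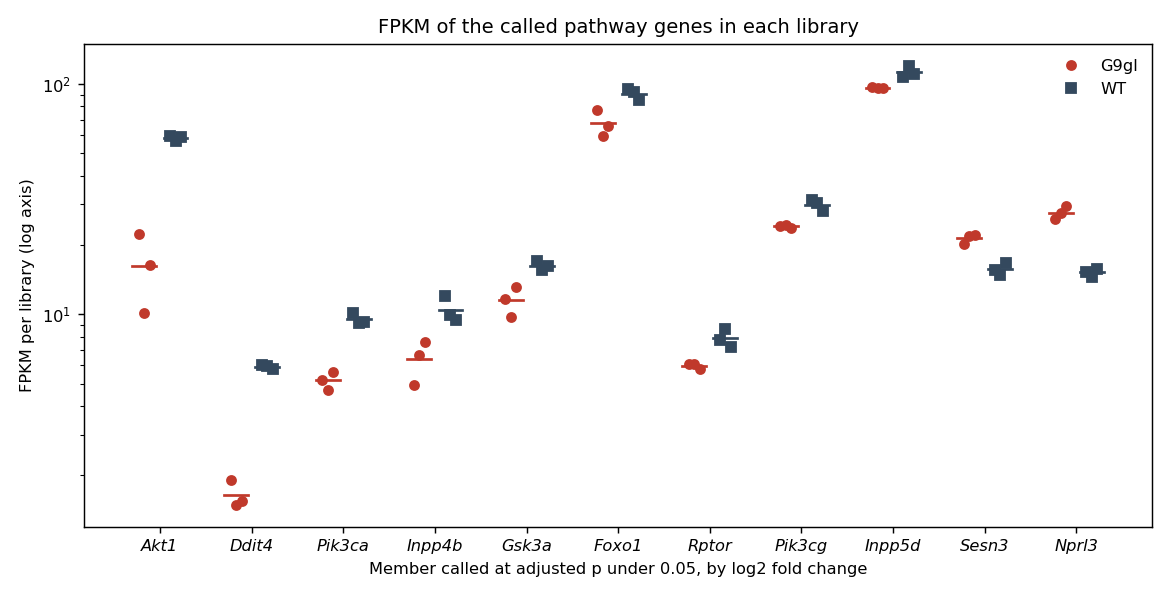
FPKM on a log axis for the 11 called pathway genes in each library, ordered by log2 fold change, with G9gl as circles left of WT as squares and the group mean as a line. Each of the 11 genes has all 3 G9gl values on 1 side of all 3 WT values, and the spread within G9gl is wide for Akt1, at 10.1 to 22.4 FPKM.

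Class I PI3 kinases pair a catalytic with a regulatory subunit. Pik3cd, the gene of the delta catalytic subunit found mostly in leukocytes, was by far the most abundant of the 4 catalytic genes. It had 127, 111 and 108 FPKM in the G9gl libraries against 104, 120.5 and 119 FPKM in the WT libraries. The groups overlapped, and the 95% interval of its fold change ran between 0.889 and 1.14 (adjusted p 0.935).

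Pik3ca, which encodes the widely expressed alpha subunit, had 5.20, 4.69 and 5.60 FPKM in G9gl against 10.2, 9.12 and 9.25 FPKM in WT. Every G9gl library lay below every WT library, and the gene fell 1.71-fold (log2 fold change -0.77 ± 0.10 SE, limma adjusted p 6.46e-04). Pik3cg, which encodes the gamma subunit driven by G protein-coupled receptors, had 24.2, 24.5 and 23.8 FPKM in G9gl against 31.2, 30.4 and 28.0 FPKM in WT. It fell 1.23-fold without overlap (adjusted p 0.0138), and without WT replicate 2 the adjusted p was 0.0548. Pik3cb, the gene of the beta subunit, was at 0.320, 0.652 and 0.597 FPKM in G9gl against 0.212, 0.378 and 0.310 FPKM in WT, too low to be tested.

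The make-up of the catalytic pool differed between the groups. Pik3cd made up 79.4 ± 1.46% of the summed FPKM of the 4 genes in G9gl against 74.2 ± 2.47% in WT (SD, n = 3 each). The share of Pik3cg was 16.7 ± 1.08% in G9gl against 19.4 ± 1.85% in WT, and that of Pik3ca was 3.57 ± 0.421% in G9gl against 6.19 ± 0.707% in WT. All 3 shares separated the groups. The sum itself overlapped, at 145 ± 10.1 FPKM in G9gl and 154 ± 7.91 FPKM in WT. Shares within a family have no test here and serve as a description.

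None of the 3 regulatory subunit genes passed the test. Pik3r1, which encodes the main partner of the alpha, beta and delta subunits, had 14.0, 14.4 and 14.2 FPKM in G9gl against 17.5, 16.0 and 17.1 FPKM in WT. All G9gl values were below all WT values, with a log2 fold change of -0.23 ± 0.07 SE and an adjusted p of 0.0502, just over the threshold. It was called lower in 5 of the 16 alternative settings. Pik3r2, an alternative partner, averaged 15.6 ± 0.926 FPKM in G9gl and 15.2 ± 0.359 FPKM in WT (SD, n = 3 each), and Pik3r5, a partner of the gamma subunit, 11.9 ± 1.398 FPKM in G9gl and 12.9 ± 1.01 FPKM in WT. Pik3ap1, which encodes the adaptor BCAP that links the B cell receptor and Toll-like receptors to PI3 kinase, had 107, 106 and 107 FPKM in G9gl against 100.2, 105 and 91.6 FPKM in WT. Its groups did not overlap, and its 95% interval spanned a 0.983-fold to a 1.19-fold change (adjusted p 0.217).

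Both lipid phosphatase genes of the set were lower. Inpp5d, which encodes SHIP1, the phosphatase that inhibitory Fc receptors recruit in B cells, had 97.0, 95.8 and 95.7 FPKM in G9gl against 108, 119.8 and 110.2 FPKM in WT. The fall was small, 1.17-fold (log2 fold change -0.22 ± 0.06 SE, adjusted p 0.0206). The adjusted p was 0.0682 without G9gl replicate 2, 0.0629 without G9gl replicate 3 and 0.0802 without WT replicate 2. Inpp4b, whose product removes the lipid signal that SHIP1 leaves, had 4.93, 6.68 and 7.61 FPKM in G9gl against 12.1, 9.93 and 9.42 FPKM in WT. It fell 1.56-fold without overlap (-0.64 ± 0.15 SE, adjusted p 0.0131), with an adjusted p of 0.0514 without WT replicate 1 and 0.0594 without a filter on low values.

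Akt1 had the largest fold change of the set on the log2(FPKM + 1) scale, while the ratio of mean FPKM in G9gl over WT was 0.279 for Akt1 and 0.277 for Ddit4. Akt1 had 22.4, 10.1 and 16.3 FPKM in the G9gl libraries against 59.3, 56.4 and 59.1 FPKM in the WT libraries. The lowest WT value was over the highest G9gl value by a wide margin, and the G9gl libraries varied far more among themselves. The log2 fold change of Akt1 was -1.84 ± 0.21 SE, a 3.59-fold fall (adjusted p 3.33e-04), and it stayed between -2.09 and -1.56 in all 16 alternative settings.

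Akt2, the isoform tied to insulin signalling, did not pass the test. It had 46.9, 35.3 and 34.6 FPKM in G9gl against 31.7, 35.7 and 31.5 FPKM in WT. The groups overlapped, and the 95% interval of its fold change was 0.978 to 1.39 (adjusted p 0.19). Akt1 made up 32.3, 22.3 and 32.0% of the summed FPKM of both genes in the G9gl libraries, against 65.2, 61.2 and 65.3% in the WT libraries. Akt2 was the more abundant isoform in each G9gl library and the less abundant one in each WT library. The sum was 55.2 ± 12.5 FPKM in G9gl against 91.2 ± 0.797 FPKM in WT.

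**Figure D2:**
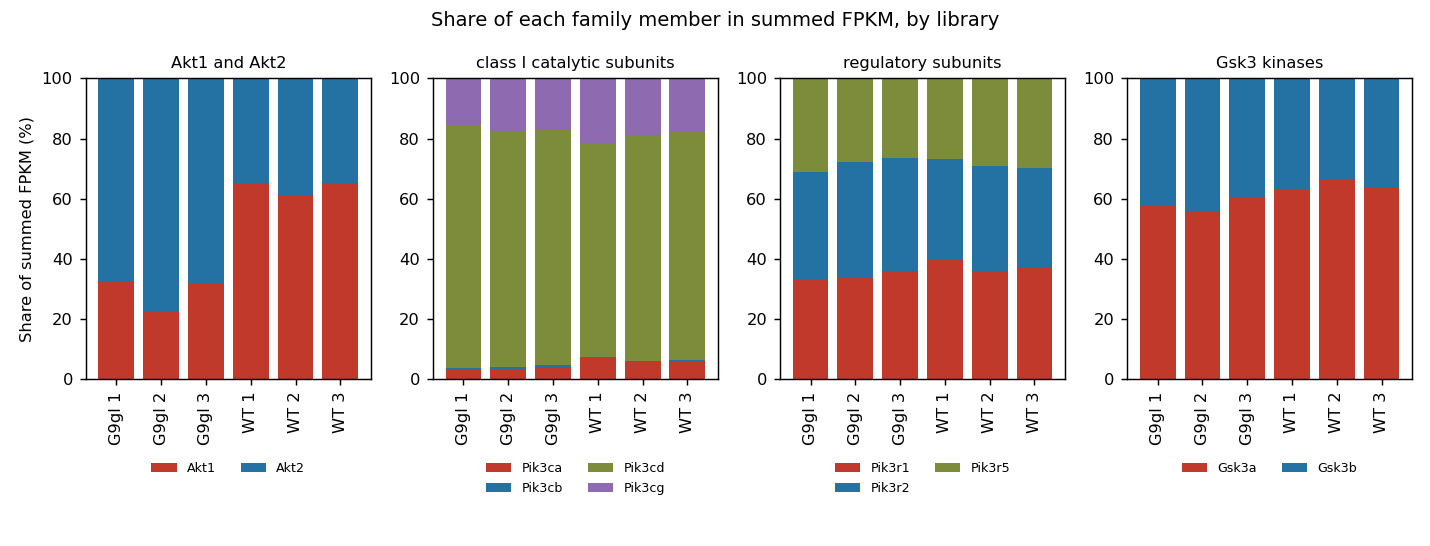
Share of each gene in the summed FPKM of its family, in percent, for each library, with the G9gl libraries left of the WT libraries. Akt1 makes up 22.3 to 32.3% of Akt1 plus Akt2 in G9gl and 61.2 to 65.3% in WT, and the other panels show the catalytic, regulatory and Gsk3 genes in the same way. Pik3r1 makes up 34.1 ± 1.57% of the regulatory subunits in G9gl and 37.5 ± 1.85% in WT.

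Akt1 lies on chromosome 12, 112653821 to 112674884 on the minus strand (mm10). The distance to the nearest immunoglobulin heavy chain gene segment of the annotation, at 113254830, is 579946 bases, and the heavy chain locus is where heavy chain knock-ins are placed. Whether this position has a part in the value was not tested. Of the 24 tested genes within 1 Mb of Akt1, 5 were lower and 3 higher, or 20.8% and 12.5%, beside 11.6% and 11.8% of all tested genes. Pik3cg, on the same chromosome, is 81.0 Mb from the heavy chain locus. The annotated gene that overlaps Akt1 is a microRNA gene, listed at 0 in all libraries.

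The other genes at this level did not pass. Pdpk1, which encodes PDK1, averaged 23.7 ± 1.20 FPKM in G9gl and 22.4 ± 1.63 FPKM in WT (adjusted p 0.509). Phlpp1, the gene of a phosphatase that switches Akt off, was low, at 2.41 ± 0.380 FPKM in G9gl and 2.996 ± 0.982 FPKM in WT, with a 95% interval of 0.655-fold to 1.14-fold.

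Of the genes of the mTOR complexes, Rptor was the only one to pass the test. Mtor, the kinase gene shared by both complexes, had 10.3, 9.01 and 10.4 FPKM in G9gl against 10.97, 10.2 and 10.4 FPKM in WT. The groups overlapped, with a 95% interval of 0.823-fold to 1.09-fold (adjusted p 0.559). Rptor, which encodes the scaffold Raptor that defines complex 1, had 6.11, 6.06 and 5.78 FPKM in G9gl against 7.73, 8.67 and 7.19 FPKM in WT. It fell 1.27-fold without overlap (adjusted p 0.0358), but the call was lost in 8 of 16 alternative settings. Among these were the fits without each G9gl library and without WT replicate 1 or 2, with adjusted p of 0.0541 to 0.130. With the replicate number as a block the adjusted p was 0.0586.

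Rictor, which defines complex 2, averaged 19.9 ± 0.616 FPKM in G9gl and 18.8 ± 0.742 FPKM in WT (adjusted p 0.469). The ratio of Rictor to Rptor FPKM was 3.37, 3.23 and 3.37 in the G9gl libraries against 2.43, 2.25 and 2.51 in the WT libraries, with no overlap. Mlst8, a subunit of both complexes, averaged 10.4 ± 0.157 FPKM in G9gl and 10.6 ± 2.19 FPKM in WT. It shares 997 of its 4435 exon bases with Bricd5 on the opposite strand, which had a mean of 2.78 FPKM in G9gl and 3.91 FPKM in WT. This overlap limits the Mlst8 value. Mapkap1, the complex 2 subunit Sin1, averaged 28.4 ± 2.07 FPKM in G9gl and 27.8 ± 1.97 FPKM in WT. Prr5, which encodes another complex 2 subunit and is taken from a separate list below, fell 1.73-fold.

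The TSC genes and Rheb did not pass. Tsc1, which encodes a subunit of the complex that restrains RHEB, had 10.5, 11.1 and 12.0 FPKM in G9gl against 8.75, 9.73 and 9.40 FPKM in WT. Its groups did not overlap (log2 fold change 0.24 ± 0.09 SE, adjusted p 0.0834), and it was called higher only after quantile normalization among the 16 alternatives. Tsc2, which encodes the subunit that acts on RHEB, had 21.0, 18.9 and 21.0 FPKM in G9gl against 21.1, 23.5 and 24.4 FPKM in WT, an opposite sign and an adjusted p of 0.165. Rheb, the direct activator of complex 1, averaged 34.8 ± 1.65 FPKM in G9gl and 34.6 ± 0.590 FPKM in WT, and its 95% interval was 0.912-fold to 1.11-fold.

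Among the amino acid sensing genes, Nprl3 rose. GATOR1, made of the products of Nprl3, Nprl2 and Depdc5, restrains complex 1 by acting on the Rag GTPases. Nprl3 had 25.9, 27.4 and 29.5 FPKM in G9gl against 15.3, 14.5 and 15.8 FPKM in WT. It rose 1.77-fold without overlap (log2 fold change 0.82 ± 0.08 SE, adjusted p 9.96e-05) and was called in all 16 alternatives.

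The other GATOR1 genes did not pass the test. Nprl2 averaged 33.8 ± 2.02 FPKM in G9gl and 35.6 ± 1.42 FPKM in WT (adjusted p 0.492). Depdc5 had 11.9, 11.9 and 11.4 FPKM in G9gl against 13.7, 14.2 and 13.7 FPKM in WT, all lower in G9gl but with an adjusted p of 0.0623.

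Nprl3 (chromosome 11, 32225628 to 32267707, minus strand) shares 1340 bases of its 7572 annotated exon bases with Mpg, a DNA repair glycosylase gene on the plus strand at 32226505 to 32232700. The library kit keeps no strand, so fragments of the shared bases cannot be assigned to either gene. Mpg had 18.2, 17.4 and 18.7 FPKM in G9gl against 6.91, 10.7 and 8.498 FPKM in WT, a 1.99-fold rise (adjusted p 6.90e-04). Which gene's transcripts rose cannot be told apart on the shared bases. The alpha globin gene Hba-a1 lies close by and had 205, 67.5 and 29.7 FPKM in the G9gl libraries against 40.7, 25.8 and 42.7 FPKM in the WT libraries. With its near-identical copy Hba-a2, between which reads can be split, the values summed to 204.9, 67.5 and 58.1 in the G9gl libraries and 40.8, 41.3 and 42.8 in the WT libraries, in FPKM. Every G9gl library was above every WT library in this sum. Its part in the Nprl3 value was not tested.

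Rragc, the gene of a Rag GTPase that docks complex 1 on the lysosome, had 38.1, 43.3 and 41.8 FPKM in G9gl against 36.6, 37.8 and 35.7 FPKM in WT, with no overlap and an adjusted p of 0.129. Rragd, its paralog, was at 0.216 to 0.558 FPKM in G9gl against 0.537 to 0.802 FPKM in WT and was not tested. The S6 kinase genes, which encode kinases switched on by complex 1, did not pass. Rps6kb1 averaged 11.4 ± 1.02 FPKM in G9gl and 12.7 ± 0.879 FPKM in WT, and Rps6kb2 25.3 ± 1.504 FPKM in G9gl and 25.1 ± 4.17 FPKM in WT. Rps6kb2 overlaps the abundant genes Coro1b and Ptprcap on the opposite strand, which limits its value.

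**Figure D3:**
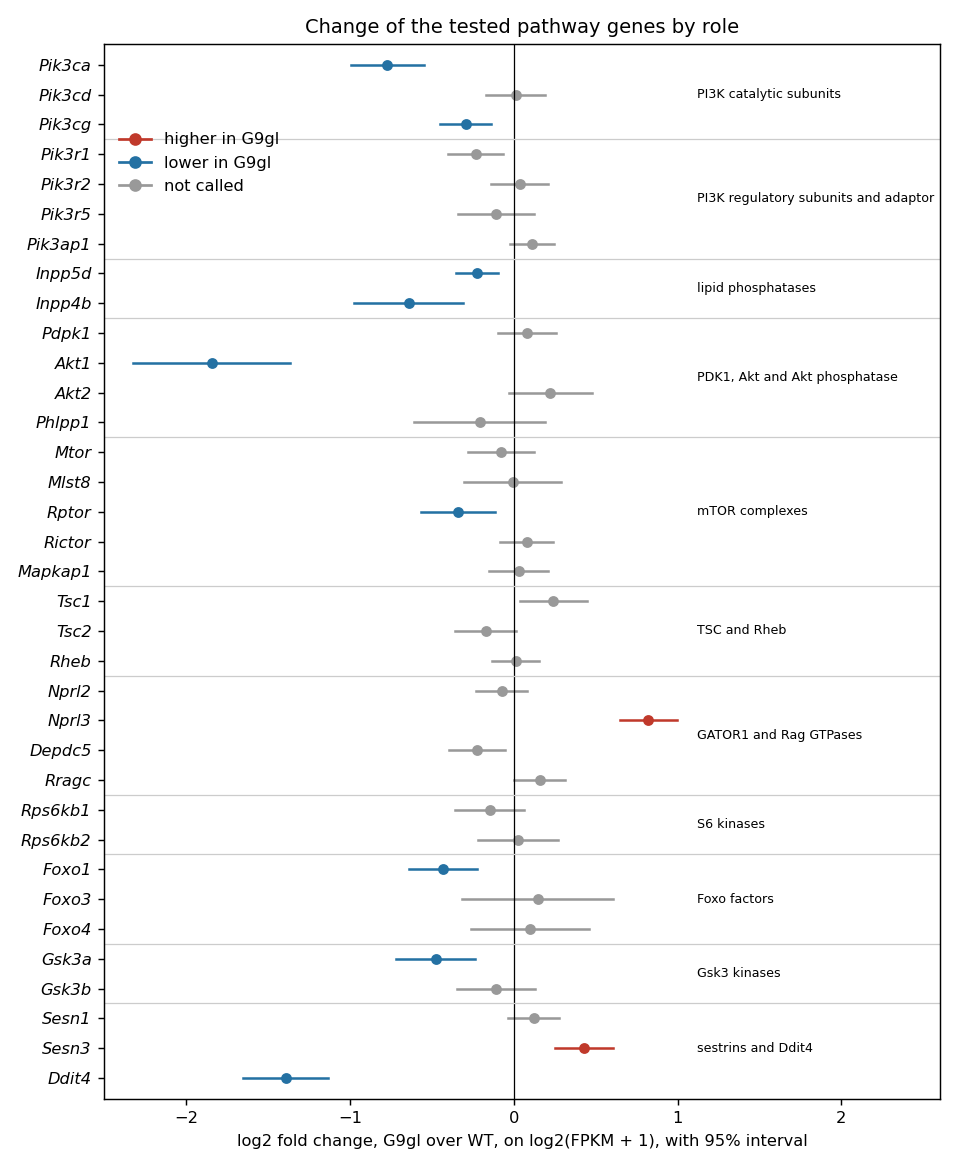
Log2 fold change of G9gl over WT on the log2(FPKM + 1) scale for the 35 tested pathway genes, grouped by role, with 95% intervals from the limma fit and calls marked by colour. Akt1 and Ddit4 stand farthest to the left at -1.84 and -1.39, Nprl3 and Sesn3 are the genes called higher at 0.82 and 0.43, and most intervals of the other genes cross 0.

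Ddit4 had the smallest adjusted p of the set. It encodes REDD1, a stress-induced inhibitor of mTOR complex 1 that works through the TSC complex. It had 1.90, 1.49 and 1.54 FPKM in G9gl against 6.02, 5.98 and 5.77 FPKM in WT, a tight fall in every library. The log2 fold change was -1.39 ± 0.12 SE, a 2.63-fold fall (adjusted p 5.35e-05), and the ratio of mean FPKM was 0.277. Ddit4 was called in all 16 alternatives.

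The sestrins, which also restrain complex 1, rose or did not pass. Sesn3 had 20.3, 21.9 and 22.2 FPKM in G9gl against 15.5, 14.8 and 16.7 FPKM in WT and rose 1.35-fold without overlap (0.43 ± 0.08 SE, adjusted p 0.00418). Sesn1 was the most abundant of them, at 75.4, 85.0 and 88.5 FPKM in G9gl against 73.7, 76.9 and 77.5 FPKM in WT, and its groups overlapped (adjusted p 0.238). Ddit4 and Sesn3, both inhibitors of the same complex, thus changed in opposite directions in the same libraries.

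Of the transcription factors that Akt inactivates, Foxo1 was the main one expressed, making up 95.5 ± 0.595% of the summed Foxo FPKM in G9gl and 97.0 ± 0.786% in WT. Foxo1 had 77.1, 59.3 and 65.9 FPKM in G9gl against 94.9, 92.4 and 85.4 FPKM in WT. It fell 1.35-fold without overlap (log2 fold change -0.43 ± 0.09 SE, adjusted p 0.00848) and was called in all 16 alternatives. It shares 674 of its 8665 exon bases with an antisense annotation, Gm20402, that was not analysed here. Foxo3 and Foxo4 were between 0.766 and 2.09 FPKM in all libraries and did not pass. The interval of Foxo3 was 0.805-fold to 1.52-fold and that of Foxo4 0.836-fold to 1.37-fold.

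Gsk3a, the gene of a kinase that Akt inhibits, had 11.7, 9.71 and 13.1 FPKM in G9gl against 17.01, 15.5 and 16.3 FPKM in WT and fell 1.39-fold (-0.48 ± 0.11 SE, adjusted p 0.0117). An antisense gene, 9130221H12Rik, shares 820 of its 2900 exon bases and had a mean of 2.997 FPKM in G9gl and 2.90 FPKM in WT. The related Gsk3b averaged 8.27 ± 0.530 FPKM in G9gl and 9.02 ± 1.04 FPKM in WT, with groups that overlapped (adjusted p 0.496). Gsk3a made up 58.0 ± 2.25% of the FPKM of both in G9gl against 64.4 ± 1.71% in WT.

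Since Foxo1 itself was lower, the promoters of the set were searched for the forkhead letters that Foxo factors are known to bind, GTAAACA or its reverse complement TGTTTAC, over windows of 250 bases before to 50 bases after each RefSeq gene start (GRCm38.p6). Of the 37 genes 35 matched the table, with 46 windows. The letters occurred in 5 of these windows, 10.9%, against 3.65% of the 32851 windows of all genes, and the 5 windows belong to Akt1, Pik3cg, Mapkap1 and Sesn1. Of these genes, Akt1 and Pik3cg fell, while Mapkap1 and Sesn1 did not pass. An E-box, CACGTG, occurred in 3 windows, 6.52%, of Pik3ap1, Rheb and Rragc, against 7.15% of all windows. One window of each gene with the forkhead letters is shown 5′ to 3′ on the strand of the gene, with that match in capitals, to let the sites be compared. A window of Ddit4, the gene with the smallest adjusted p, is added without a match.
Akt1 (chr12:112674835-112675134, minus strand, fell): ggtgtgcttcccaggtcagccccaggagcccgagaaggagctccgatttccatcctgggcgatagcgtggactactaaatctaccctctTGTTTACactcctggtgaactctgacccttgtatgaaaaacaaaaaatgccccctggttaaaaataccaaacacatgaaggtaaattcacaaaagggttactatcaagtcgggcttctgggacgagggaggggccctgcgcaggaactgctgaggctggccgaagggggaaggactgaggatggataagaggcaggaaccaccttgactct
Pik3cg (chr12:32208421-32208720, minus strand, fell): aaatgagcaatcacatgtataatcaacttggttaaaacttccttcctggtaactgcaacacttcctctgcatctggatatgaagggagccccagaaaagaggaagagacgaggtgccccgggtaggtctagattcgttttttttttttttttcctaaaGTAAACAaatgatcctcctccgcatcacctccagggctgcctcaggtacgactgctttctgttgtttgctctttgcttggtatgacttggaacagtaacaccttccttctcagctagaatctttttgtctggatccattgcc
Mapkap1 (chr2:34406521-34406820, plus strand, did not pass): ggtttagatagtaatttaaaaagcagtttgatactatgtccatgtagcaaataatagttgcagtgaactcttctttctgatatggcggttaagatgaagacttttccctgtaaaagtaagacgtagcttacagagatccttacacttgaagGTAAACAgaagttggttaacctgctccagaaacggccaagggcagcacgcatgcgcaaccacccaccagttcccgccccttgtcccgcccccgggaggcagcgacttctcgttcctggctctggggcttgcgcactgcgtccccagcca
Sesn1 (chr10:41810324-41810623, plus strand, did not pass): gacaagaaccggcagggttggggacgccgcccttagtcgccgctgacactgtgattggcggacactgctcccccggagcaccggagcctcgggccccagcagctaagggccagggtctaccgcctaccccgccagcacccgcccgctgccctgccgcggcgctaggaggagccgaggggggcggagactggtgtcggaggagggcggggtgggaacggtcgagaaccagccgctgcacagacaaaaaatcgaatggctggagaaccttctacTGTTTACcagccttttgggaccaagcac
Ddit4 (chr10:59951721-59952020, minus strand, fell): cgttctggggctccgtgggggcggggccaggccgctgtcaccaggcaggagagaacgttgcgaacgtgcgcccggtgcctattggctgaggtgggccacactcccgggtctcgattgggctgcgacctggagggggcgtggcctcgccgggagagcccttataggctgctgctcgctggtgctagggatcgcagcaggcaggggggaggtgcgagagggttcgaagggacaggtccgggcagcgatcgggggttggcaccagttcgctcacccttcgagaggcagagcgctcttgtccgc

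The match begins 161 bases before the annotated start in Akt1, 92 bases before it in Pik3cg and 99 bases before it in Mapkap1, and 22 bases after it in Sesn1. The other windows of Akt1, Pik3cg and Sesn1 have no match, and 1 other window of Mapkap1 overlaps the one shown and holds the same site. A match is a description of the letters and is not evidence of binding.

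Other genes of the pathway were counted from 3 further lists. Of 35 tested phosphoinositide and Akt regulators outside the set, 14 fell, 3 rose and 18 did not pass, with a median log2 fold change of -0.20. These are 40% lower and 8.57% higher, beside 11.6% and 11.8% of all tested genes. Pik3ip1, which encodes a membrane inhibitor of PI3 kinase, had 17.3 ± 2.13 FPKM in G9gl against 34.5 ± 2.99 FPKM in WT and fell 1.94-fold (adjusted p 1.73e-04). Ppp2r5a, a regulatory subunit gene of the phosphatase PP2A, fell 2.13-fold, to 34.9 ± 7.72 FPKM in G9gl against 74.3 ± 1.52 FPKM in WT. Sgk1, the gene of a kinase related to Akt, fell 2.09-fold, to 13.03 ± 2.90 FPKM in G9gl against 27.9 ± 1.77 FPKM in WT. Plekha2, which encodes an adaptor that binds a PI3 kinase lipid product, fell 1.3998-fold, to 101 ± 4.02 FPKM in G9gl against 142 ± 1.39 FPKM in WT.

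The 3 regulators that rose were Tec, Trib1 and Ocrl. Tec, a kinase gene whose product is recruited by the PI3 kinase lipid, had 128 ± 5.96 FPKM in G9gl against 92.2 ± 0.840 FPKM in WT and rose 1.38-fold (adjusted p 3.81e-04). Trib1, a pseudokinase gene, rose 1.45-fold (adjusted p 0.0127). Ocrl, a lipid phosphatase gene, had 1.72 ± 0.125 FPKM in G9gl against 0.996 ± 0.163 FPKM in WT (adjusted p 0.0444), a call lost when any 1 library was left out, with adjusted p of 0.0642 to 0.156. The number of regulators called lower was 8 without G9gl replicate 2 or WT replicate 1 and 9 without WT replicate 2. In those fits 7.94%, 8.61% and 6.86% of all tested genes were lower.

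The 43 tested mTOR, nutrient-sensing and output genes outside the set held 5 that rose, 4 that fell and 34 that did not pass, with a median log2 fold change of 0.0088. With 9.30% lower and 11.6% higher, the list was near the 11.6% and 11.8% of all tested genes. Prr5, which encodes Protor-1 of mTOR complex 2, had 54.9 ± 2.55 FPKM in G9gl against 95.6 ± 4.87 FPKM in WT, a 1.73-fold fall (adjusted p 4.45e-05). Srebf2, a cholesterol synthesis factor gene, fell 1.43-fold (adjusted p 6.58e-04). Tfeb, a lysosome biogenesis factor gene that complex 1 inhibits, had 53.7 ± 1.38 FPKM in G9gl against 72.5 ± 1.48 FPKM in WT and fell 1.34-fold (adjusted p 6.30e-04). Prkag1, a subunit gene of the energy sensor AMPK, fell 1.25-fold (adjusted p 0.04), and leaving out any library other than WT replicate 1 ended that call, with adjusted p of 0.0627 to 0.135.

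Those that rose were Rps6, Sesn2, Sec13, Stk11 and Lamtor5. Sesn2, the leucine-binding sestrin gene, had 8.63 ± 1.09 FPKM in G9gl against 5.08 ± 0.589 FPKM in WT and rose 1.58-fold (adjusted p 0.00405). Rps6, a ribosomal protein that S6 kinases phosphorylate, rose 1.32-fold, to 815 ± 34.9 FPKM in G9gl against 619 ± 11.4 FPKM in WT (adjusted p 4.96e-04). Stk11, which encodes the AMPK kinase LKB1, rose 1.57-fold (adjusted p 0.0343), with adjusted p of 0.0514 to 0.0716 without any G9gl library or without WT replicate 3. Sec13, of the GATOR2 complex, rose 1.18-fold (adjusted p 0.0204), with adjusted p of 0.0535 without G9gl replicate 2, 0.0627 without WT replicate 1 and 0.0727 without WT replicate 2. Lamtor5, of the Rag docking complex, rose 1.14-fold (adjusted p 0.0396), with adjusted p of 0.0757 to 0.136 without G9gl replicate 2 or 3 or WT replicate 2 or 3. With values rescaled to TPM the split of these 43 genes was 2 higher and 10 lower, beside 7.21% and 24.6% of all tested genes in that setting. The number higher was 2 without G9gl replicate 2 and 3 without G9gl replicate 3, WT replicate 2 or WT replicate 3. In those fits 7.93%, 8.67%, 8.26% and 9.86% of all tested genes were higher.

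Of 28 tested genes reported as Foxo-regulated in lymphocytes or other cells, 3 rose, 6 fell and 19 did not pass (median log2 fold change -0.13). These are 10.7% higher and 21.4% lower, beside 11.8% and 11.6% of all tested genes. Cat, the catalase gene, fell 1.46-fold, to 68.7 ± 1.403 FPKM in G9gl against 101 ± 5.04 FPKM in WT. Txnip, whose product restrains glucose uptake, fell 1.43-fold, to 183 ± 13.7 FPKM in G9gl against 262 ± 8.22 FPKM in WT. Bcl6, the germinal centre repressor gene, fell 1.30-fold (adjusted p 0.0022), as did Cdkn1b, which encodes the cell cycle inhibitor p27 (adjusted p 0.0169). The call of Cdkn1b was lost without G9gl replicate 2 (adjusted p 0.0621) or WT replicate 1 (adjusted p 0.0608).

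Cxcr4, a chemokine receptor gene, rose 3.49-fold, to 69.0 ± 7.98 FPKM in G9gl against 18.998 ± 0.934 FPKM in WT. Blnk, a B cell adaptor gene, rose 1.16-fold (adjusted p 0.0389), with adjusted p of 0.0579 to 0.132 when any library other than G9gl replicate 1 was left out. With values rescaled to TPM 2 of these 28 genes were higher and 13 lower, beside 7.21% and 24.6% of all tested genes in that setting. The number lower was 3 without G9gl replicate 2 or WT replicate 1 and 4 without G9gl replicate 3 or WT replicate 2. In those fits 7.94%, 8.61%, 8.26% and 6.86% of all tested genes were lower.

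**Figure D4:**
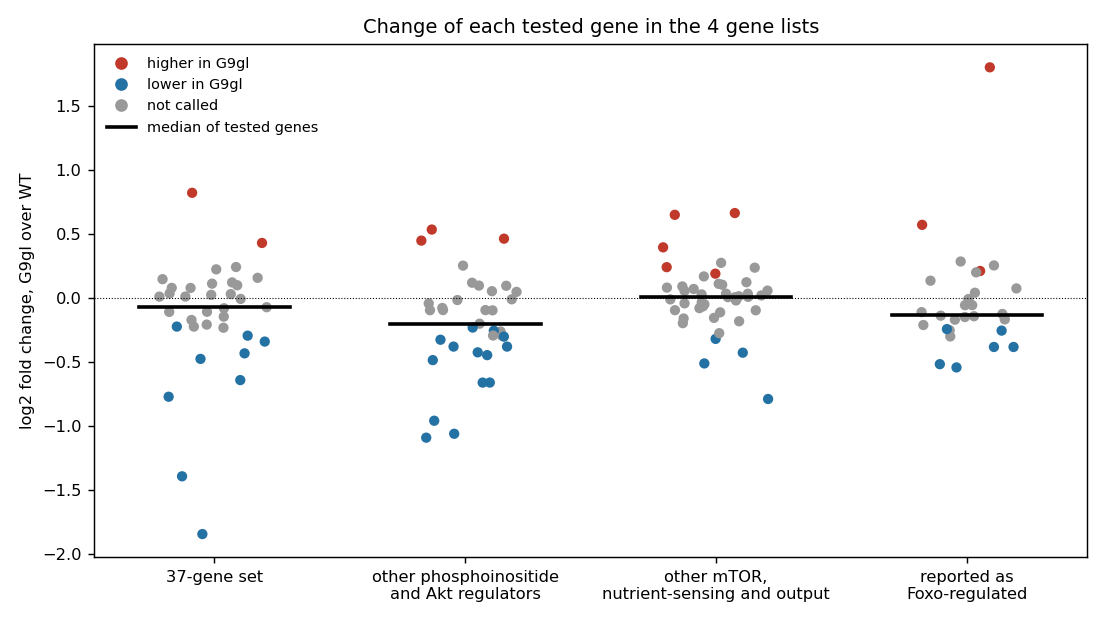
Log2 fold change of G9gl over WT for each tested gene of the 37-gene set and of the 3 further lists, coloured by call, with the median of each list as a black line. The phosphoinositide and Akt regulators have the lowest median at -0.20, the mTOR and nutrient-sensing genes lie around 0, and Cxcr4 is the highest point at 1.80.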

How the data were processed

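Per the labels' protocols, Trizol-extracted total RNA was made into full-length cDNA with a SMART-Seq HT kit and into Nextera libraries, which keep no strand. The tools named are Cufflinks 2.2.1, TopHat2 2.0.13, SAMtools 0.1.19 and Bowtie2 2.2.3, with genome build mm10, per the submitters' processing notes. The authors deposited FPKM per gene symbol, 1 table per library. Which annotation, filters and scaling they used is not given in the sources used here. Totals of FPKM were 657759 to 671533 in G9gl and 603054 to 611557 in WT.

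Here limma 3.58.1 (R 4.3.3, lmFit and eBayes with trend) was run on log2(FPKM + 1) of the 10122 genes with at least 1 FPKM in 3 libraries, with genotype as the only term, and was tested on simulated data. Fold changes are on that scale, which understates changes of low genes. Depth was estimated from the FPKM steps of low genes with 1 annotated transcript, and 78.8 to 84.1% of the values lay within 0.15 of a whole fragment. Positions and exons came from GENCODE vM21 (GRCm38), and promoters from RefSeq (GRCm38.p6). The text names all genes of the set and, from each further list, up to 4 called genes with the smallest p per direction, or all where 5 or fewer were called. Some genes of the lists are not reported here. The members and lists were chosen with earlier results of these data known. Replicate numbers were not used to pair the libraries in the main fit. The 16 alternatives are given in the closing section.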

Additional observations from a re-analysis of the deposited data

How the results depend on the processing

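Akt1, Ddit4, Pik3ca, Foxo1, Gsk3a, Sesn3 and Nprl3 kept their call and direction in all 16 alternatives. The number of pathway genes called lower was 6 to 10 apart from 13 with values rescaled to TPM, and 2 or 3 were higher. Rescaling to TPM moved the median log2 fold change of all tested genes to -0.13, and then 730 were higher and 2493 lower, against 1191 and 1174 before. Of all tested genes, 793 were higher without G9gl replicate 2 and 689 lower without WT replicate 2, and with no filter on low values 968 of 19079 were higher and 785 lower.

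Same-numbered libraries did not deviate together (correlations of 0.099, -0.069 and 0.021). The labels give a shared number only, and so few libraries per group cannot show whether same-numbered ones share a batch. With that number as a replicate block, 2 pathway genes were higher and 8 lower, beside 10.3% and 9.76% of all tested genes. In that fit Rptor had a log2 fold change of -0.34 with an adjusted p of 0.0586.

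Of the further lists, without a filter 1 phosphoinositide regulator and 3 mTOR genes were higher, beside 5.07% of all genes in that fit. Rescaled to TPM, 2 mTOR genes were higher and 10 lower, and 13 Foxo-regulated genes were lower. In that setting 7.21% of all tested genes were higher and 24.6% lower. Leaving out 1 library gave 2 regulators higher and 8 to 10 lower, 2 to 5 mTOR genes higher and 3 to 5 lower, and 2 or 3 Foxo-regulated genes higher and 3 to 8 lower. Fewer genes were also called over the whole data in most of these fits, with 7.93 to 10.8% of all tested genes higher and 6.86 to 11.8% lower. The cause was not tested.

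Genes that changed sign were all uncalled, with log2 fold changes near 0. With TPM these were Pik3cd (-0.12), Pik3r2 (-0.092), Pik3ap1 (-0.020), Pdpk1 (-0.049), Rictor (-0.049), Mapkap1 (-0.10), Rheb (-0.12), Rps6kb2 (-0.10) and Sesn1 (-0.0099). After quantile normalization they were Pik3cd (-0.032) and Mlst8 (0.038), and with library weights Pik3cd (-0.032), Mapkap1 (-0.0022) and Rps6kb2 (-0.0075). Leaving out 1 library gave ranges that cross 0 for Pik3cd (-0.059 to 0.055), Pik3r2 (-0.0094 to 0.067), Mlst8 (-0.16 to 0.12), Mapkap1 (-0.022 to 0.086), Rheb (-0.027 to 0.033), Rps6kb2 (-0.047 to 0.15), Foxo3 (-0.050 to 0.27) and Foxo4 (-0.029 to 0.21).

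Without 1 library at a time, the difference of G9gl minus WT in the share of Akt1 was -36.7 to -31.7 percentage points, of Pik3ca -2.88 to -2.22, of Pik3cd 3.81 to 6.14, of Pik3cg -3.54 to -1.73 and of Gsk3a -7.62 to -5.38, and in the ratio of Rictor to Rptor 0.855 to 0.983. At 18.4 to 21.6 fragments per FPKM in 2 kb, short transcripts at low FPKM rest on the fewest fragments.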
